A study of Rattus norvegicus with 59 samples.

Results

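The immediate early and feedback genes are 10 genes, namely Fos, Jun, Junb, Egr1, Ier2, Zfp36, Dusp1, Btg2, Atf3 and Errfi1, of the 13337 genes that have a named probe on the array. They were taken by symbol from the platform annotation. Each of 9 of them has 1 probe there, so 9 probes of 22523 are described, and Btg2 is named only. The level of each gene was read on 59 arrays, 1 per rat, from whole kidneys of the Fawn-Hooded Hypertensive rat, an inbred strain with raised blood pressure and early renal damage. All rats were of this strain. In the PDTC groups the dams drank water with 150 mg per L of pyrrolidine dithiocarbamate, given as an inhibitor of the transcription factor NF-kB, from 2 weeks before to 4 weeks after birth; in the untreated groups they did not. At 2 days there were 4 PDTC males, 5 untreated males, 4 PDTC females and 5 untreated females. At 2 weeks there were 4 PDTC males, 6 untreated males, 6 PDTC females and 5 untreated females. The adults, 5 in each of the 4 groups, were 36 weeks old if male and 42 weeks old if female, so adult sex cannot be told apart from age in weeks, and adult PDTC rats had last been exposed at 4 weeks. No label ties a rat to its dam or litter, and the p-values therefore cover no more than the variation among the rats sampled. The labels likewise do not state the time from death to homogenisation of the kidney.

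Immediate early genes are transcribed within minutes of a stimulus such as a growth factor, stress or handling of the tissue, by factors that are already present in the cell, and their RNAs decay fast. Fos, Jun and Junb encode subunits of the AP-1 transcription factor, Egr1 encodes a zinc finger transcription factor, Ier2 a nuclear protein, and Atf3 a stress-induced repressor of the ATF and CREB family. The feedback genes are induced by the same signals and damp them: Zfp36 (tristetraprolin) speeds the decay of AU-rich mRNAs, Dusp1 is a phosphatase that inactivates MAP kinases, Errfi1 (Mig6) inhibits the EGF receptor, and Btg2 restrains proliferation.

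Promoter sequences were available from RefSeq (build GRCr8) for 7 of the 10 symbols, and the last 150 bases before the start of 6 of them are shown, because immediate early promoters are known for serum response (CArG) and cAMP response elements. Capitals mark a CArG box in Egr1 and Zfp36, a cAMP response element (TGACGTCA) in Ier2 and Dusp1, and a TATA box (TATAAA) in Junb and Errfi1.
Egr1: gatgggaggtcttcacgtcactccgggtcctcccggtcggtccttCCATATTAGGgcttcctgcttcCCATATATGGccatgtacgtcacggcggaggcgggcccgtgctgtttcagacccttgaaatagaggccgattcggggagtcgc
Zfp36: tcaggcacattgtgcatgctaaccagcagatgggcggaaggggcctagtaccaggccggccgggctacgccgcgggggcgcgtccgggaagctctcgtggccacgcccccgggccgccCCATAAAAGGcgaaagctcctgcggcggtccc
Ier2: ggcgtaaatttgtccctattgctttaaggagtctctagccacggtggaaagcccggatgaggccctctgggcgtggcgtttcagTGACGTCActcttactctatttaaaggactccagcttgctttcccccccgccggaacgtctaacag
Dusp1: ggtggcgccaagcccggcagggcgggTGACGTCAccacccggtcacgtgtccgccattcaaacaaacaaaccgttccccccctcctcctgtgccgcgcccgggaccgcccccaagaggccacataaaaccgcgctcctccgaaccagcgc
Junb: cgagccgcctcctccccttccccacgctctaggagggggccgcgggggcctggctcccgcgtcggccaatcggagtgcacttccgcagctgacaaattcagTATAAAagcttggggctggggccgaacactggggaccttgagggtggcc
Errfi1: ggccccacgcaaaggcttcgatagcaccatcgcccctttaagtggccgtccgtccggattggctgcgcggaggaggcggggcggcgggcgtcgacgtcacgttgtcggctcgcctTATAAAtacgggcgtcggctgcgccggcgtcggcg
The positions are chr18:26736928-26737077 on the plus strand for Egr1, chr1:92799109-92799258 on the minus strand for Zfp36, chr19:40399223-40399372 on the plus strand for Ier2, chr10:17184703-17184852 on the plus strand for Dusp1, chr19:40080976-40081125 on the plus strand for Junb, and chr5:166606691-166606840 on the plus strand for Errfi1.

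Both strands of the 250 bases before the start were searched. Egr1 held CArG boxes that begin 105 and 83 bases before the start, and Zfp36 held 1 that begins 32 bases before it and shares 1 base with a GC box. Such a box was present in 1.5% of all 33469 promoters. The cAMP response element was present in Ier2, Dusp1 and Btg2, beginning 66, 124 and 201 bases before the start, and in 1.59% of all promoters. TATAAA was present in Junb and Errfi1 and in 12.9% of all promoters, and the GC box (GGGCGG) in Zfp36, Errfi1, Dusp1 and Btg2 and in 30.5% of all. An AP-1 site (TGANTCA) and an NF-kB site were in 0 of these 7 windows, against 6.34% and 3.54% of all promoters. These are matches of letters in 1 window per gene and were not set against any measured level.

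Signals were corrected for background, quantile-normalized over all arrays and given as log2 levels. Median signals of the arrays were 67.8 to 202.7 and their background levels 59.9 to 136.6, and adult arrays were the dimmest, with 9139 to 10864 probes above background each, against 10665 to 12488 on the 2-week and 11113 to 12459 on the 2-day arrays. Pup kidneys were on slides 1 to 6 except untreated 2-week male 6, on slide 8, and adult kidneys on slides 7 to 10. Of 9 markers of tubule and podocyte, 8 were above background on every array, and the podocyte marker Wt1 was so on 13 of 20 adult arrays and on all others. Of 7 adrenal genes, Cyp11b1, Cyp11b2 and Mc2r were above background on 0 arrays, while Star was so on 15 of 18 arrays at 2 days, 16 of 21 at 2 weeks and 19 of 20 in adults, Hsd3b1 on 17, 20 and 14, Cyp17a1 on 14, 21 and 15, and Cyp21a1 on 3, 4 and 11. In untreated adults against untreated 2-week pups 2 of the 4 adrenal genes tested were called higher, and their part in the members' differences was not tested. All members but Fos and Atf3 were above background on every array. Fos was above background on 10 of 18 arrays at 2 days, 19 of 21 at 2 weeks and 6 of 20 in adults, and Atf3 on 17, 18 and 19. All 9 probes passed the filter of at least 4 such arrays in every fit. In whole kidney, fewer cells of a type and less RNA per cell cannot be told apart.

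**Figure D1:**
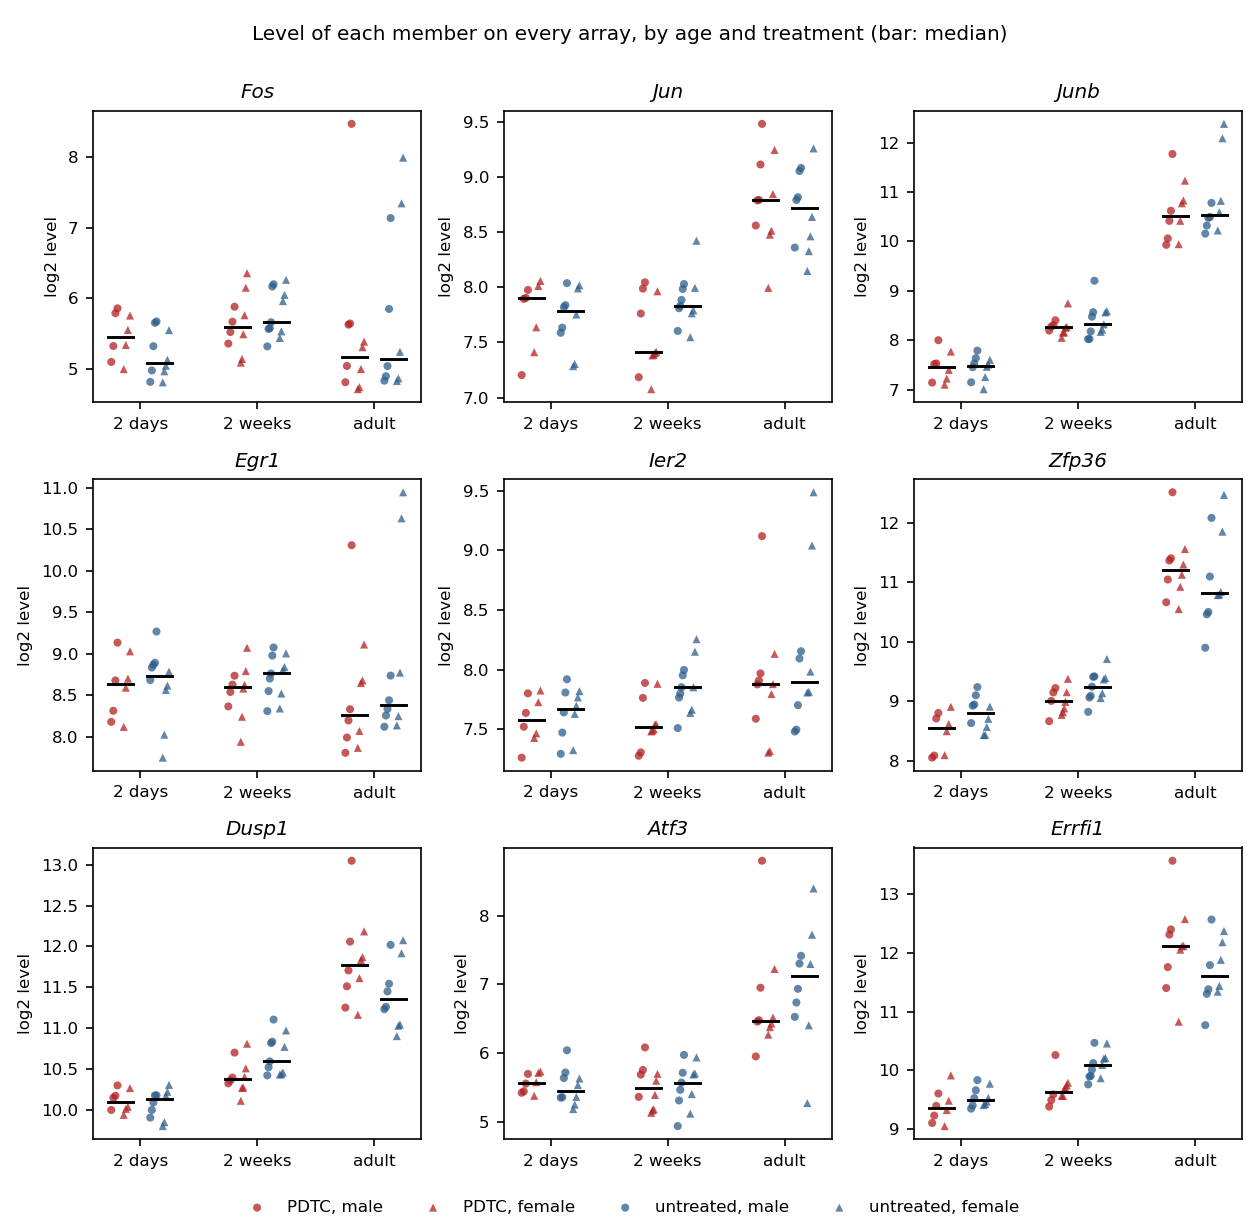
Log2 level (vertical axis) of each of the 9 members on every array at 2 days, 2 weeks and in adults, with PDTC rats in red left of untreated rats in blue, males as circles, females as triangles and the median of each treatment as a bar. Junb, Zfp36 and Errfi1 climb in steps over the ages, while Egr1 has an adult median of 8.33 with 3 arrays above 10.

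Junb changed most with age among the members. Its level in untreated rats was 7.44 ± 0.24 at 2 days (n = 10), 8.39 ± 0.34 at 2 weeks (n = 11) and 10.83 ± 0.77 in adults (n = 10; SD throughout). The lowest, median and highest values were 7.01, 7.48 and 7.79 at 2 days, 8.02, 8.32 and 9.20 at 2 weeks, and 10.16, 10.54 and 12.38 in adults. The 3 ages did not overlap. Neither non-overlap of groups nor agreement over slides was counted over all probes, here or below. Such statements therefore have no background share beside them. Adults stood above 2-day pups by 3.40 ± 0.21 on the log2 scale (SE), a 10.5-fold difference, with an adjusted p of 1.02e-11 in limma.

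Zfp36, the mRNA decay factor, was at 8.79 ± 0.28, 9.25 ± 0.24 and 11.08 ± 0.81 at 2 days, 2 weeks and in adults. Errfi1, the EGF receptor inhibitor, was at 9.54 ± 0.17, 10.09 ± 0.23 and 11.70 ± 0.56. Adults did not overlap with either pup age for these genes, the lowest adult value of Zfp36 being 9.90 against a highest 2-week value of 9.71, and that of Errfi1 10.77 against 10.47. The adult levels exceeded those at 2 days 4.89-fold and 4.48-fold. Dusp1, the MAP kinase phosphatase, was at 10.07 ± 0.17, 10.67 ± 0.24 and 11.45 ± 0.43, and the highest 2-week value, 11.10, lay above the lowest adult value, 10.90. Jun was at 7.73 ± 0.27, 7.88 ± 0.24 and 8.70 ± 0.37, and the highest 2-week value, 8.42, lay above the lowest adult value, 8.15. Atf3, the stress-induced repressor, was at 5.51 ± 0.26 and 5.53 ± 0.32 in pups and at 7.0 ± 0.85 in adults, where values ran from 5.27 to 8.39.

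The other 3 transcriptional genes were steadier in the mean. Fos was at 5.19 ± 0.33, 5.79 ± 0.34 and 5.80 ± 1.23, and the adult median, 5.14, was lower than the 2-week median, 5.66. Egr1 was at 8.63 ± 0.44, 8.71 ± 0.26 and 8.86 ± 1.04. Ier2 was at 7.64 ± 0.21, 7.86 ± 0.22 and 8.11 ± 0.66. Their adult SDs were wider than those at either pup age, and the adult levels are given array by array below.

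In the comparison of untreated 2-week with untreated 2-day kidneys, 5 of 9 members were called at an adjusted p under 0.05, and all 5 rose. Of all 13378 probes tested, 38% were called, 16.9% higher and 21% lower. Junb rose by 0.95 ± 0.13, Fos by 0.61 ± 0.14, Dusp1 by 0.60 ± 0.10, Errfi1 by 0.56 ± 0.09 and Zfp36 by 0.46 ± 0.10 (log2 difference ± SE, limma adjusted p 3.57e-06 to 0.00168). The rise of Fos starts near background, since its probe was above background on 4 of 10 untreated 2-day and 10 of 11 untreated 2-week arrays. Both ages shared 6 slides. Within slides Junb, Dusp1, Errfi1, Zfp36 and Ier2 were higher at 2 weeks on 6 of 6, and Fos on 5 of 6. Ier2 differed by 0.23 ± 0.10 (limma adjusted p = 0.0781), and with slide as a fixed term by 0.27 (limma adjusted p = 0.00154). The median difference was 0.46 over the members and -0.01 over all probes. In 1 fit of all arrays 3 members were called, since Fos (limma adjusted p = 0.147) and Zfp36 (0.0618) were not.

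In untreated adults against untreated 2-week pups, 6 of 9 members were called, and all 6 rose, against 64.2% of 13114 probes called, 31.8% higher and 32.4% lower. Junb rose by 2.44 ± 0.22, Zfp36 by 1.82 ± 0.23, Errfi1 by 1.61 ± 0.18, Atf3 by 1.47 ± 0.26, Jun by 0.81 ± 0.14 and Dusp1 by 0.78 ± 0.15 (limma adjusted p 2.42e-09 to 0.000123). Fos differed by 0.01 ± 0.35, Egr1 by 0.15 ± 0.27 and Ier2 by 0.24 ± 0.18 (limma adjusted p 0.245 to 0.992). In untreated adults against untreated 2-day pups, 7 of 9 members were called, and all 7 rose, against 71.5% of 13079 probes called, 35.2% higher and 36.3% lower. They were Junb, Zfp36 (2.29 ± 0.24), Errfi1 (2.17 ± 0.18), Atf3 (1.49 ± 0.27), Dusp1 (1.38 ± 0.15), Jun (0.97 ± 0.14) and Ier2 (0.47 ± 0.19, limma adjusted p = 0.0305). These comparisons share their untreated arrays and are not independent of each other. The call of Ier2 was lost on leaving out any 1 of 6 arrays, with differences of 0.34 to 0.43: untreated 2-day male 4 and female 2, and untreated adult males 3 and 5 and females 1 and 4.

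Adults and pups shared slide 8 only. The untreated adults there were male 1 and female 1. For all 9 members their mean stood above untreated 2-week male 6, by 0.75 (Ier2) to 2.91 (Atf3). The Atf3 level of that pup, 4.935, was the lowest of its group, in which 5 of 6 arrays had Atf3 above background. Female 1 is among 3 kidneys of high levels described below. Male 1 alone lay below that pup for Fos (4.83 against 5.32), Ier2 (7.48 against 7.51) and Egr1. With slide as a fixed term 1 member, Atf3 (2.98, limma adjusted p = 0.0458), was called in adults against 2 weeks. Junb was then at 2.03 (0.109), Zfp36 at 2.31 (0.11) and Errfi1 at 1.25 (0.203). In that fit untreated 2-week male 6 was the only pup on a slide with adults, so the Atf3 call rests on its low level. When arrays were scaled to 1 median in place of quantile normalization, the median of all probes moved to -0.57 in adults against 2 weeks and to -0.53 in adults against 2 days. The share of calls that were higher was then 17.3% against 49.6% in the first and 21.7% against 49.2% in the second, and 50.8% against 44.6% in 2 weeks against 2 days. On that scale Egr1 (-0.78, limma adjusted p = 0.0111) and Ier2 (-0.70, 0.00564) were called lower in adults than at 2 weeks, and Dusp1 (0.02) and Jun (-0.12) were not called. Relative to that median, Junb was at 2.22, Zfp36 at 1.58, Errfi1 at 1.42, Atf3 at 1.41, Dusp1 at 0.59, Jun at 0.45 and Fos at 0.30 in adults against 2 weeks, while Egr1 and Ier2 turned to -0.20 and -0.12. Leukocyte markers moved with age too: 9 of 10 tested genes of a list of 17 were called higher in adults than at 2 weeks, and the mean level of the list was 6.62 to 7.33 on untreated adult and 5.73 to 6.05 on untreated 2-week arrays. The part of these cells in the members' rise was not tested.

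**Figure D2:**
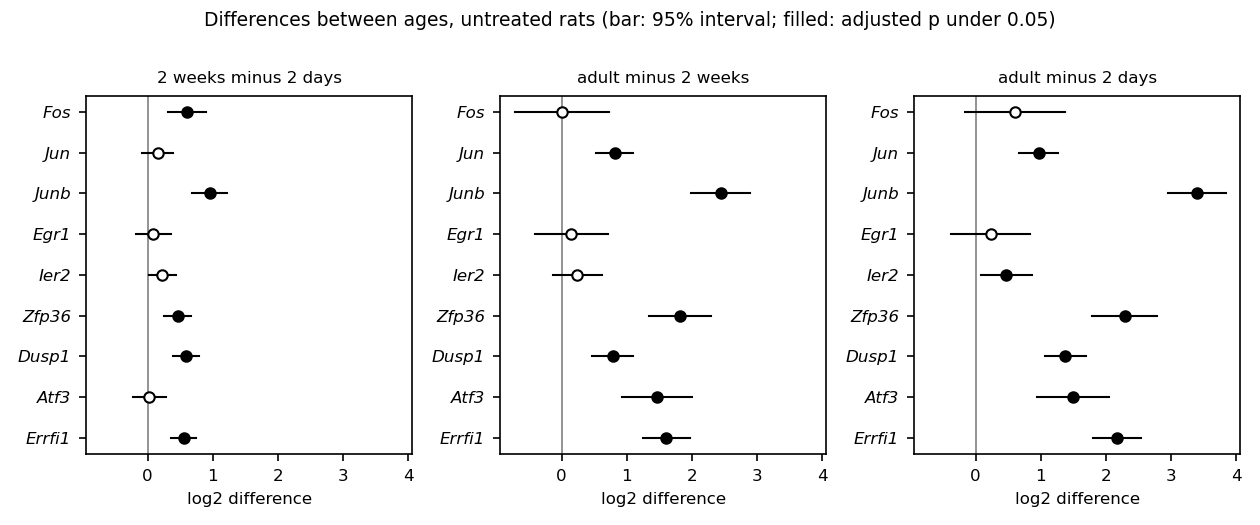
Log2 difference between ages in untreated rats for each member (horizontal axis; point with 95% interval; filled where the limma adjusted p is under 0.05). The members called are on the positive side in every panel, and Junb is the farthest out at 0.95, 2.44 and 3.40.

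PDTC and untreated kidneys differed in 0 of 9 members at 2 days, 2 weeks and in adults, in both sexes together, in males and in females (limma, adjusted p under 0.05). The background was 0 as well: 0% of 13163 probes at 2 days, 0% of 13360 at 2 weeks and 0% of 11701 in adults were called, also in each sex. The sex difference of the effect was called for 0% of probes at each age, as was its age difference. At an unadjusted p under 0.05 there were 1, 5 and 0 members at 2 days, 2 weeks and in adults in both sexes together, against 16%, 5.25% and 5.74% of all probes. With array weights 392 probes were called at 2 days. Leaving out 1 array gave 301 without untreated male 4, fewer without PDTC male 4 or untreated female 3, and 0 without any other. Over the 17 comparisons of treatment or sex, 0 members were called under any alternative processing run.

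At 2 weeks 8 of 9 members were lower in PDTC than in untreated kidneys, against 49.9% of all probes. The median log2 difference was -0.25 over the members and 0.00023 over all probes. The members were read on the same arrays and are not independent of each other. Errfi1 was the farthest down. In PDTC males it had levels of 9.59, 9.38, 9.49 and 10.26, against a lowest, median and highest of 9.76, 9.96 and 10.47 in untreated males. In PDTC females the lowest, median and highest were 9.56, 9.69 and 9.79, against 10.09, 9.87, 10.20, 10.46 and 10.21 in untreated females. The females of the 2 treatments did not overlap, while PDTC male 4 lay within the untreated males. The difference was -0.42 ± 0.11 (a 0.748-fold level, unadjusted p = 0.000647, limma adjusted p = 0.823), and 9 of 10 PDTC kidneys lay below the untreated mean.

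Ier2 was at 7.57 ± 0.21 in PDTC and at 7.86 ± 0.22 in untreated 2-week kidneys (n = 10 and 11), a difference of -0.30 ± 0.10. The differences were -0.29 ± 0.12 for Jun, -0.25 ± 0.10 for Zfp36 and -0.25 ± 0.10 for Dusp1, and the limma adjusted p was 0.823 for these 4 as well. Errfi1, Ier2, Jun and Zfp36 were lower with PDTC on 6 of 6 slides and Dusp1 on 5 of 6. For Zfp36 this includes slide 4, with a difference of -0.003. How many of all probes were lower on every slide was not counted. Fos, Egr1 and Junb were at -0.16, -0.16 and -0.11, and Atf3 at 0.01. Median scaling moved the median of all probes to 0.13 in this comparison, and the members that then lay above 0 were Junb (0.09), Egr1 (0.05) and Atf3 (0.01). Fat markers lay on the same side as the members: 5 of 5 tested genes of a list of 7 were lower with PDTC at 2 weeks (0 called), with a mean level of the list of 7.07 to 10.07 (median 7.68) on PDTC and 7.84 to 9.92 (median 8.43) on untreated arrays. Their part in the difference was not tested.

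At 2 days the members lay on both sides of 0, with a median of 0.02 over the members and -0.02 over all probes. Zfp36 was at 8.47 ± 0.35 in PDTC and 8.79 ± 0.28 in untreated pups (n = 8 and 10), a difference of -0.32 ± 0.13 (limma adjusted p = 0.237), and of -0.56 ± 0.18 in males (limma adjusted p = 0.403) and -0.08 ± 0.18 in females. Fos differed by 0.27 ± 0.15, and the other 7 by -0.15 to 0.06. Within the 5 slides that held both treatments at 2 days, Zfp36 was lower with PDTC on 4 and Egr1 on 5 (-0.55 to -0.05), while the Egr1 difference over all arrays was -0.04 ± 0.16, and with slide as a fixed term -0.24 (limma adjusted p = 0.45). Slide 6 held 3 untreated and 0 PDTC arrays of that age. The difference of the PDTC effect between 2 weeks and 2 days was below 0 for 8 of 9 members, against 45.8% of all probes. It ran from -0.43 ± 0.23 for Fos to 0.07 ± 0.17 for Zfp36, with a limma adjusted p of 1 for each.

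In adults the feedback genes Errfi1 (0.41 ± 0.27) and Dusp1 (0.38 ± 0.21) were higher in PDTC than in untreated kidneys, in 8 of 10 PDTC rats against the untreated mean, and Errfi1 was so on 4 of 4 slides. Zfp36 (0.17) and Jun (0.09) were higher too. Egr1 (-0.36 ± 0.36), Fos (-0.33 ± 0.47), Atf3 (-0.26 ± 0.35), Junb (-0.23 ± 0.27) and Ier2 (-0.22 ± 0.23) were lower. These are values for both sexes together. The limma adjusted p was 0.797 to 0.932 over the 9 members. The 95% intervals of Fos ran from -1.30 to 0.64 and of Egr1 from -1.10 to 0.38, and so included differences of either sign. The sexes differed in direction. In males 8 of 9 members were higher with PDTC (median 0.307), and in females 6 of 9 were lower (median -0.455). The female effect minus the male effect was below 0 for 9 of 9 members (median -0.695), against 49.4% of all probes, with 0 called. These values include the kidneys of high levels described below. In untreated adult females against untreated adult males, 0 of 9 members were called, against 1.38% of probes, and in the same comparison at 2 days and 2 weeks 0% of probes were called.

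**Figure D3:**
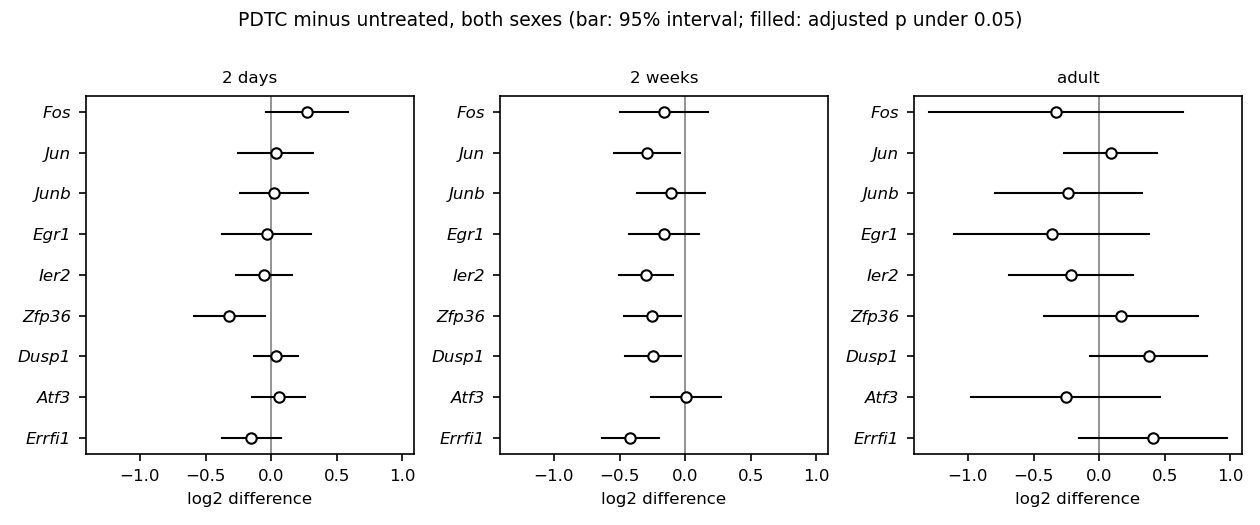
Log2 difference between PDTC and untreated kidneys, both sexes together, for each member at 2 days, 2 weeks and in adults (horizontal axis; point with 95% interval; open, since 0 members had a limma adjusted p under 0.05). At 2 weeks 8 of 9 points lie left of 0, and the adult intervals are the widest.

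In the levels of the members, adult kidneys of 1 group differed more from each other than pup kidneys did. This spread was not set against that of all probes. Lists outside the set ranged widely in adults too, such as heat shock genes (9.85 to 10.74, against 9.91 to 10.17 at 2 days). The SD of the mean deviation of the 9 members from their group means was 0.127 at 2 days, 0.145 at 2 weeks and 0.618 in adults. The adult value includes PDTC male 3 (1.391) and untreated females 1 (0.922) and 4 (0.898). Fos had a within-group SD of 1.17 in adults and 0.342 at 2 days, Egr1 of 0.887 and 0.372, Atf3 of 0.863 and 0.206, and Jun, the steadiest adult member, of 0.391 and 0.307.

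Egr1 in adults was at 7.80, 8.33, 10.31, 8.19 and 7.99 in PDTC males, against 8.33, 8.25, 8.74, 8.44 and 8.12 in untreated males. It was at 8.68, 8.07, 8.64, 7.86 and 9.11 in PDTC females, against 10.94, 8.13, 8.24, 10.63 and 8.77 in untreated females. PDTC male 3 and untreated females 1 and 4 stood apart, and the other 17 adult arrays lay between 7.80 and 9.11. These 3 kidneys were on slides 10, 8 and 7.

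Fos was at 4.81, 5.04, 8.48, 5.63 and 5.64 in PDTC males, against 4.83, 4.89, 7.14, 5.04 and 5.85 in untreated males. In PDTC females it was at 4.99, 4.71, 5.30, 4.74 and 5.38, against 7.35, 4.83, 4.86, 8.0 and 5.24 in untreated females. The same 3 kidneys were the highest, and untreated male 3 was next. These 4 arrays, PDTC male 5 and untreated male 5 were the 6 adult arrays with Fos above background, so the order of the other 14 was not measured.

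The AP-1 gene Junb was at 11.77 in PDTC male 3 and at 12.38 and 12.09 in untreated females 1 and 4, the other 17 adult arrays lying between 9.93 and 11.23. Ier2 was at 9.12 in PDTC male 3 and at 9.04 and 9.49 in untreated females 1 and 4, with the others at 7.30 to 8.15. Atf3 was at 8.80 in PDTC male 3 and at 8.39 and 7.72 in untreated females 1 and 4, with the others at 5.27 to 7.41. These 5 transcriptional genes thus had their 3 highest adult levels in the same 3 kidneys. Jun, Zfp36 and Dusp1 had 2 and Errfi1 had 1 of its 3 highest levels there. PDTC male 3 was the highest for Jun (9.49), Zfp36 (12.51), Dusp1 (13.05) and Errfi1 (13.57). Untreated male 3 was high in part of the set, with 12.08 for Zfp36 and 12.57 for Errfi1 but 10.49 for Junb, against an adult median of 10.54.

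**Figure D4:**
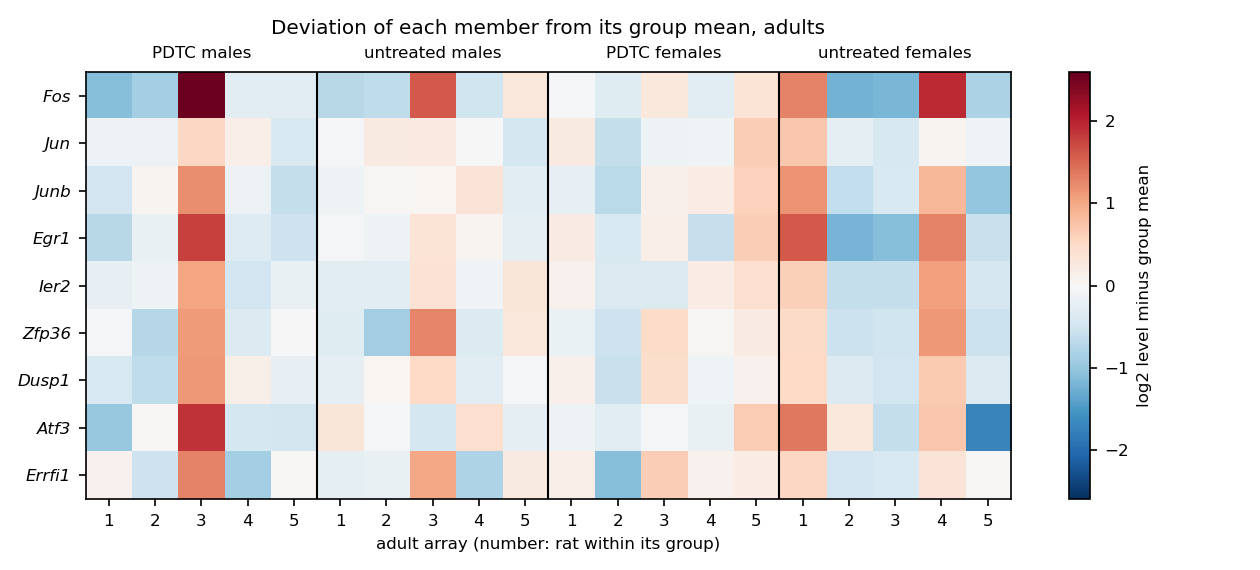
Deviation of each member (rows) from its group mean on each of the 20 adult arrays (columns), as a log2 difference from blue (lower) to red (higher), with PDTC groups left of untreated groups of the same sex. PDTC male 3 and untreated females 1 and 4 are red in nearly every row, and untreated male 3 mainly for Fos, Zfp36 and Errfi1.

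Leaving out PDTC male 3 and untreated females 1 and 4, an alternative chosen after seeing the data, takes out the 3 adult arrays of highest Egr1 and so lowers adult Egr1, and genes that follow it, by construction. It takes out untreated females 1 and 4 against PDTC male 3, and so moves the adult PDTC difference of those genes by construction too. The differences between ages and those with PDTC are therefore given with no test. In adults against 2 weeks Egr1 was then at -0.33, Fos at -0.54 and Ier2 at -0.04. Junb was at 2.10, Zfp36 at 1.55, Errfi1 at 1.46, Atf3 at 1.12, Jun at 0.69 and Dusp1 at 0.58. In adults against 2 days Ier2 was at 0.19. The PDTC difference in adults moved to -0.10 for Egr1, -0.05 for Junb and -0.07 for Ier2. It was 0.44 for Dusp1 and 0.40 for Errfi1, while Fos no longer passed the filter on background.

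Correlations between members were taken over arrays within each age, on levels from which the mean of each sex and treatment group had been removed. There were 36 pairs at each of 3 ages, with p-values from 100000 permutations within groups, adjusted over all pairs and ages together. The arrays of an age share their slides and their normalization.

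In adults all 36 pairs were positive, with Pearson's r from 0.34 to 0.913 (median 0.752) and Spearman's rho from 0.272 to 0.869 (median 0.685). By Pearson's r 28 pairs were called and by Spearman's rho 22. The closest pairs joined Fos to the feedback genes Dusp1 (r = 0.913, rho = 0.869, permutation adjusted p = 0.00194 and 0.00324) and Zfp36 (r = 0.903, rho = 0.853, adjusted p = 0.00194 and 0.00691), and to Egr1 and Ier2 (r = 0.888 each). The Fos values rest on 6 of 20 arrays with the probe above background, 3 of them the 3 kidneys named above, and on background values elsewhere. Among pairs without Fos, the closest were Junb with Egr1 (r = 0.886, rho = 0.788, permutation adjusted p = 0.0142 and 0.0188) and Junb with Atf3 (r = 0.866, rho = 0.78, 0.00194 and 0.0117). The loosest pair was Atf3 with Errfi1 (r = 0.34). With slide removed as well, the median r was 0.76. Without the 2 arrays farthest from the median of the first gene of each pair it was 0.62.

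Leaving out the 3 kidneys named above, chosen by their Egr1 level after seeing the data, left 0 pairs called. The choice narrows the range of Egr1 and of genes that follow it, and it leaves fewer arrays. Lower r and fewer calls follow in part by construction, and no conclusion is drawn from the loss of calls. Over the other 17 arrays r ran from -0.36 to 0.837 with a median of 0.323, 31 of 36 pairs were positive, 10 had an unadjusted permutation p under 0.05 and 0 an adjusted p under 0.05. Zfp36 with Errfi1 was at 0.778 (adjusted permutation p = 0.0697) and Jun with Egr1 at 0.702 (0.124), while Egr1 with Atf3 was at 0.058, against 0.77 over 20 arrays. Pairs with Fos, from -0.27 to 0.837, are not read here, since the probe was above background on 3 of these 17 arrays.

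Few pairs were called in pups. The adjustment was over the pairs of all 3 ages, and 33 adult pairs had an unadjusted p under 0.05. The pup calls rest on this shared adjustment, and none over pup pairs alone was made. Unadjusted, 4 of 36 pairs at 2 days and 6 of 36 at 2 weeks had a permutation p under 0.05. At 2 days the median r was 0.111 over 18 arrays, 25 of 36 pairs were positive and 3 were called. Junb with Egr1 (r = 0.758, rho = 0.763, permutation adjusted p = 0.0118 and 0.0124) and Jun with Dusp1 (r = 0.748, rho = 0.728, 0.0208 and 0.0328) were positive, and Jun with Zfp36 was negative (r = -0.62, rho = -0.64, 0.0406 and 0.0328). Without the 2 farthest arrays these were 0.795, 0.681 and -0.54. At 2 weeks the median r was 0.174 over 21 arrays, 28 of 36 pairs were positive and 4 were called: Fos with Egr1 (r = 0.706, rho = 0.732), Jun with Atf3 (0.636 and 0.653), Ier2 with Atf3 (0.563 and 0.616) and Jun with Dusp1 (0.555 and 0.547), with permutation adjusted p of 0.0152 to 0.0492 for r. Without the 2 farthest arrays they were at 0.644, 0.673, 0.51 and 0.404. Jun with Dusp1 was the pair called by r at all 3 ages (r = 0.689 in adults), but by rho its adjusted permutation p at 2 weeks was 0.0541, and in adults without the 3 kidneys r was 0.526 (adjusted p = 0.326). The pup values depend on the scaling: with arrays scaled to 1 median the median r was 0.462 at 2 days and 0.571 at 2 weeks, with 10 and 21 pairs called.

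**Figure D5:**
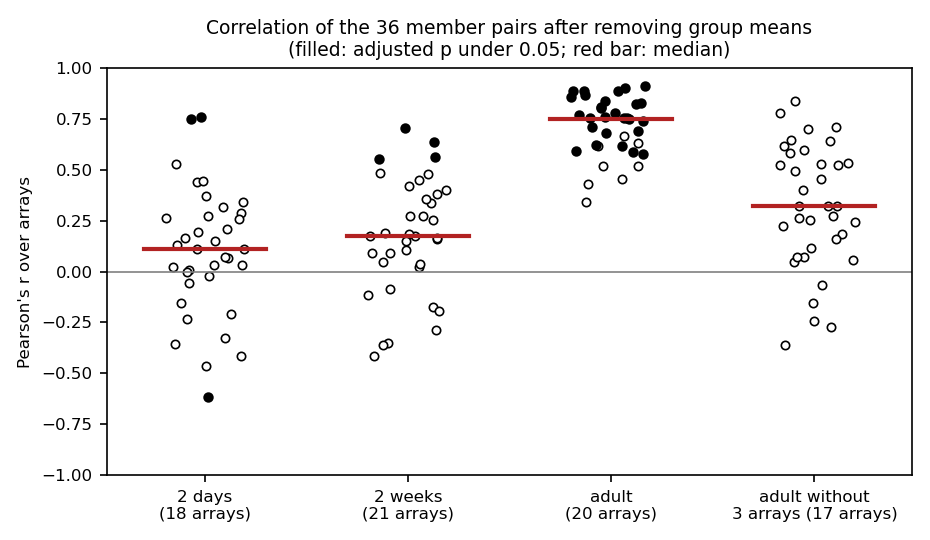
Pearson's r over arrays (vertical axis) of the 36 pairs of members at 2 days, 2 weeks, in adults and in adults without PDTC male 3 and untreated females 1 and 4, after group means were removed; filled points have a permutation adjusted p under 0.05 and the red bar is the median. The medians are 0.111, 0.174, 0.752 and 0.323. The p-values were adjusted over the pairs of all 3 ages together, and the filled pup points rest on this. The 3 kidneys were left out for their Egr1 level, after seeing the data.

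Against all probes as background, the other members were near the top of the list of probes most like Egr1 in adults. Of 11700 probes, Fos ranked 3 by r with Egr1, Junb 4, Ier2 6, Dusp1 8, Atf3 15, Jun 20, Zfp36 32 and Errfi1 86, while the median r of all probes was -0.02. These ranks include the 3 arrays of highest Egr1, and leaving those out tends to lower r with Egr1 by construction. Without them r with Egr1 was 0.401 for Junb (0.886 with them), 0.324 for Ier2 (0.858), 0.454 for Dusp1 (0.838), 0.058 for Atf3 (0.77), 0.702 for Jun (0.755), 0.261 for Zfp36 (0.708) and 0.323 for Errfi1 (0.619), and Fos was mostly at background. At 2 weeks Fos ranked 1 of 13359, Junb 522 and Errfi1 9455. At 2 days Junb ranked 54 of 13162, Fos 668 and Ier2 9369.

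The genes outside the set whose levels were most like the mean of the 9 members, over 59 arrays with group means removed, were Sik1 (r = 0.77), Apold1 (0.737), Ptgs2 (0.731), Nr4a3 (0.726), Cebpb (0.708), Map3k8 (0.692), Irf1 (0.68) and Rnf19b (0.669). Sik1 encodes a salt-inducible kinase, Ptgs2 the inducible cyclooxygenase, Nr4a3 an orphan nuclear receptor, Cebpb and Irf1 transcription factors, and Map3k8 a kinase upstream of the MAP kinases. In adults alone their r was 0.762 to 0.879, and without the 3 kidneys, over all ages, 0.432 to 0.629. The likeness was looser in pups. At 2 weeks r ran from -0.29 (Ptgs2) to 0.727 (Sik1). At 2 days it ran from -0.242 (Apold1) to 0.555 (Ptgs2), and Cebpb (-0.144) and Irf1 (-0.207) were below 0 as well. Of 11111 probes 5 reached an r of 0.8, the members included.

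Fos was set against 10 measures of the samples at each age, as 30 relations adjusted together. Its probe was above background on 10 of 18 arrays at 2 days, 19 of 21 at 2 weeks and 6 of 20 in adults. At 2 days and in adults r and rho thus rest largely on background values, and nothing is concluded from a lack of calls. By both r and rho 0 of 30 were called. The closest was a list of glucocorticoid-responsive genes in adults (r = 0.471, rho = 0.589, permutation adjusted p = 0.902 and 0.0987; r without the 2 farthest arrays 0.362, with slide removed 0.488). The list's mean adult level ran from 9.77 to 11.96, with 11.85 in PDTC male 3 and 10.72 and 11.73 in untreated females 1 and 4. In adults Fos had an r of 0.395 with hypoxia genes, -0.24 with heat shock genes, -0.20 with leukocyte markers, -0.20 with the number of probes above background and -0.13 with the log2 median signal. At 2 weeks the closest was the number of probes above background (r = 0.414, adjusted permutation p = 0.902). With slide removed its r was -0.02, while that of hypoxia genes at 2 weeks went from 0.346 to 0.744. In that setting 1 relation of Fos was called at 2 weeks. Handling time is not stated in the labels, and its part in these levels was not tested.

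Other genes of the same pathways were followed as lists, described by counts beside the backgrounds given above. Of a list of 44 further immediate early genes 34 had a probe, and PDTC changed 0 of the 29 or 30 tested at any age (limma, adjusted p under 0.05). In 2-week against 2-day kidneys 14 of 30 rose and 4 fell, against 16.9% and 21% of all probes called higher and lower, with a median difference of 0.22. The matricellular gene Ccn1 rose by 1.02 ± 0.13 and the clock-linked repressor Bhlhe40 by 0.57 ± 0.12, while the proliferation gene Myc was at -0.74 ± 0.09 and the differentiation inhibitor Id1 at -0.52 ± 0.08. In adults against 2 weeks 12 of 30 rose and 7 fell, against 31.8% and 32.4% of all probes. Arc, an activity-regulated gene of neurons, rose by 1.55 ± 0.17 and the orphan nuclear receptor gene Nr4a1 by 1.13 ± 0.15, while Id1 (-1.35 ± 0.12) and the EGF receptor ligand Hbegf (-1.09 ± 0.15) fell. In adults against 2 days 17 of 31 rose and 7 fell, among them Ier3 (1.62 ± 0.20), Egr2 (1.45 ± 0.17) and Id1 (-1.87 ± 0.11).

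Of 29 further feedback inhibitors 28 had a probe, and PDTC changed 0 of 22 to 24 tested. In 2-week against 2-day kidneys 4 of 22 rose and 3 fell, close to the 16.9% and 21% of all probes, so that nothing is read from the count. Among them were the kinase-like Trib1 (1.03 ± 0.13) and the receptor tyrosine kinase antagonist Spry2 (-0.55 ± 0.12). In adults against 2 weeks 9 of 22 rose and 4 fell, against 31.8% and 32.4% of all probes. Ppp1r15a, which encodes a regulatory subunit of a phosphatase that acts on a translation factor after stress, rose by 1.81 ± 0.23. The phosphatase gene Dusp5 rose by 1.13 ± 0.15, and Spred2, an inhibitor of the MAP kinase cascade, by 1.12 ± 0.15. The stress gene Gadd45g rose by 1.28 ± 0.19. Of 24 tested in adults against 2 days 13 rose and 7 fell, Btg1, the paralogue of Btg2, being at -0.85 ± 0.10.

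Of a list of 20 kinases, receptors and factors upstream 13 had a probe. In 2-week against 2-day kidneys 3 of 12 rose and 1 fell, against 16.9% and 21% of all probes. The counts in adults against 2 weeks were 4 and 6, against 31.8% and 32.4%, and nothing about the list is read from these counts. Egf, the ligand whose receptor Errfi1 inhibits and a gene of the distal nephron, rose by 4.81 ± 0.18 at 2 weeks against 2 days and by 0.78 ± 0.11 in adults against 2 weeks. The serum response factor gene Srf, whose protein binds CArG boxes, was at -0.16 ± 0.05 and -0.44 ± 0.08, and Map2k1, which activates the MAP kinases ERK, at -0.74 ± 0.15 in adults against 2 weeks (limma adjusted p 3.66e-15 to 0.0219 for these values). With PDTC 0 of the 11 or 12 tested were called at any age.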

How the data were processed

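Kidney RNA was hybridised to Illumina RatRef-12 arrays, 1 per rat (59). The authors' non-normalized file gives, for each probe and array, a deposited signal intensity and a deposited detection p-value; from its values this p-value is two-sided. The authors' value table holds deposited log2 values with the same ranks within arrays (rank correlation 1), at most 0.161 from quantile-normalized log2 signals. Their normalization is not stated in the labels.

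The neqc method, planned as the main setting, assumes one-sided p-values, so the background was taken from the 50 probes of highest p, and its SD from the signals below it. Normexp, addition of 16, quantile normalization and log2 followed. Probes above background (normal p under 0.05) on at least 4 arrays were tested with limma 3.58.1 in R 4.3.3 (group means, Benjamini-Hochberg, threshold 0.05), and correlations were computed with NumPy 2.4.6. Of the probes 13793 had 1 symbol, 0 several and 8730 none, and 13752 matched GRCr8 gene IDs. Slides come from the column names. Alternatives were no normexp, median scaling, deposited values, no filter, slide terms, 1 fit, array weights, and arrays or slide 6 left out. Named genes were the members, those of smallest p per list and comparison, and the 8 most like the member mean. Members and lists were chosen with earlier results of these data known. The methods were tested on simulated data.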

Additional observations from a re-analysis of the deposited data

Results flagged for a closer look

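In 7 sets of 1 gene in 1 group (9 genes in 12 groups) 1 kidney was far from the others, and chance gives about 1 such set in 20. Adult PDTC male 3 was far above the other 4 PDTC males for Fos (8.48, the others at 4.81 to 5.64), Egr1 (10.31, the others at 7.80 to 8.33) and Ier2 (9.12, the others at 7.59 to 7.97). Adult PDTC female 5 was high for Atf3, at 7.22 with the others at 6.27 to 6.51. At 2 weeks PDTC female 1 was high for Junb (8.75, the others at 8.05 to 8.27) and PDTC female 3 for Ier2 (7.88, the others at 7.48 to 7.54). At 2 days PDTC male 1 was low for Jun, at 7.20 with the others at 7.90 to 7.98. Untreated adult females 1 and 4 were not singled out in this way, since they lay far from their group together. Of 45 tests of a difference between sexes or ages in the PDTC effect, 0 were called (limma, adjusted p under 0.05).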

How the results depend on the processing

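Of 2920 values recomputed, 2774 kept their direction and their side of the threshold or stayed within 1.5 times, and 146 did not, and the cause of the changes was not tested. For the PDTC effect and the sex comparisons 0 members were called under all settings. With arrays scaled to 1 median, PDTC at 2 days gave 0.167 for Egr1, 0.168 for Ier2 and 0.044 for Errfi1, and at 2 weeks 0.094 for Junb and 0.045 for Egr1; adults against 2 weeks gave -0.27 for Fos, -0.122 for Jun, -0.779 for Egr1 and -0.696 for Ier2, and adults against 2 days -0.649 for Egr1 and -0.419 for Ier2. Probes called were then 42 for females against males in adults and 2722 for 2 weeks against 2 days. The median r was 0.462 with 10 pairs called at 2 days and 0.571 with 21 at 2 weeks, and 1 relation of Fos was called at 2 weeks. Relative to the median of all probes, PDTC gave 0.043 (Egr1), 0.044 (Ier2) and -0.016 (Atf3) at 2 days and -0.119 (Atf3) at 2 weeks, and Egr1 was at -0.204 and Ier2 at -0.122 in adults against 2 weeks, and Egr1 at -0.119 in adults against 2 days.

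With slide as a fixed term, PDTC gave -0.071 (Jun), -0.082 (Junb) and -0.026 (Dusp1) at 2 days and -0.075 (Atf3) at 2 weeks, and adults against 2 weeks had 735 probes and 1 member called; adults against 2 days could not be estimated. With slide as a random block PDTC gave -0.025 (Jun) and -0.037 (Junb) at 2 days and -0.025 (Atf3) at 2 weeks, with 2 probes called in 2-day males. Removing slide means gave a median r of 0.218 with 5 pairs at 2 days, 0.297 with 8 pairs at 2 weeks, and 1 relation of Fos at 2 weeks. Without slide 6 PDTC gave -0.083 (Jun), -0.065 (Junb) and -0.051 (Dusp1) at 2 days and -0.007 (Atf3) at 2 weeks, and 2 weeks against 2 days -0.131 (Egr1). In females against males at 2 days 1 probe was called with no normexp, deposited values, slide as a random block, array weights or no slide 6.

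In 1 fit of all arrays the probes called were 1 for PDTC at 2 days, 53 for PDTC in adults (261 in males, 135 in females), 372 for its sex difference and 979 for females against males in adults, with 3 members called in 2 weeks against 2 days. With array weights they were 392 for PDTC at 2 days, 60 for adult PDTC males, 1 for the adult sex difference and 260 for adult females against males; Atf3 was at -0.063 for PDTC at 2 weeks, and Fos at -0.419 and Egr1 at -0.115 in adults against 2 weeks. Ier2 in adults against 2 days was not called with array weights (0.247), no filter (limma adjusted p = 0.0526) or no slide 6 (0.0576). Without adult PDTC male 3 and untreated females 1 and 4, chosen after seeing the data, 50 probes were called for adult females against males and 1 for the PDTC effect in adults minus 2 weeks; adults against 2 weeks gave -0.334 (Egr1), -0.535 (Fos) and -0.035 (Ier2), adults against 2 days -0.247 (Egr1), and the adult median r was 0.323 with 0 pairs called. It was 0.62 without the 2 farthest arrays.

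Leaving out 1 array at a time gave 0 to 301 probes for PDTC at 2 days, 0 to 4 for 2-day males, 0 to 9 for adult males, 0 to 2 for the adult sex difference, 0 to 1 for the 2-week minus 2-day effect, 0 to 1 for females against males at 2 days and 96 to 183 in adults. It gave PDTC effects of -0.013 to 0.125 (Jun), -0.055 to 0.088 (Junb) and -0.128 to 0.047 (Egr1) at 2 days and -0.052 to 0.068 (Atf3) at 2 weeks. Atf3 was at -0.022 to 0.082 in 2 weeks against 2 days, Fos at -0.238 to 0.158 and Egr1 at -0.053 to 0.298 in adults against 2 weeks, and Ier2 at 0.336 to 0.546 in adults against 2 days. No paired analysis was possible because the replicate numbers follow accession order. Fos was near background on many arrays, which limits its folds.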
